A study of Mus musculus with 20 samples.

Results

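The MHC class II genes are described here in mouse neutrophils and lung of 3 Ager genotypes. They are the 10 rows of the deposited count table, out of 54532, whose gene name is H2-Aa, H2-Ab1, H2-Eb1, Cd74, H2-DMa, H2-DMb1, H2-DMb2, H2-Oa, H2-Ob or Ciita. All 10 passed the filter on low counts in both tissues and were tested.

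RNA was sequenced from 20 libraries of C57BL/6 mice. Neutrophils (PMN) came from dorsal air pouches 4 h after injection of 1 µg of bacterial lipopolysaccharide (LPS), and lungs were perfused and had no treatment in the labels. The neutrophil libraries were 3 of Ager-/-, 3 of Ager AHA/AHA and 3 of wild type (WT), and the lung libraries were 4, 4 and 3 in the same order. Ager encodes RAGE, the receptor for advanced glycation end products. Ager AHA/AHA is a knock-in of point mutations at the site where RAGE binds heparan sulfate, made by CRISPR in C57BL/6J eggs, and Ager-/- is a separate knockout line received from another laboratory. No source used here gives the age or sex of the animals, and the pouch cells were not sorted before RNA was made.

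MHC class II molecules are cell surface pairs of an α and a β chain that show peptides from ingested proteins to CD4+ T cells. Dendritic cells, B cells and macrophages carry the most, type 2 alveolar cells of the lung also carry them, and resting neutrophils carry little. Newly made pairs bind the invariant chain Cd74, lose it in endosomes, and receive peptide with the help of H2-DM, which H2-DO restrains. The coactivator Ciita binds to a complex of RFX, CREB and NF-Y on a shared upstream element of these genes, the X and Y boxes, and so sets their transcription.

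Of the 10 genes, 8 lie in the class II region of chromosome 17 in mm10, between H2-Oa (chr17:34092340-34095234) and H2-Eb1 (chr17:34305877-34316199). Ager (chr17:34597862-34600936) is on the same chromosome, and the distance to it was from 282 kb for H2-Eb1 to 503 kb for H2-Oa. Ciita and Cd74 are on other chromosomes. All are protein-coding genes.

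The upstream sequences are shown because these genes share a control element. RefSeq windows on GRCm38.p6, taken as the 250 bases before a transcription start, were matched by symbol for 7 of the 10 genes, with none for H2-Ab1, Cd74 and Ciita. In 6 of those 7 genes the window holds TGATTGG, the core of the Y box that NF-Y binds, between 45 bases (H2-Oa) and 92 bases (H2-DMb2) before the start. The 55 bases around it are printed 5′ to 3′ on the strand of the gene, with capitals for TGATTGG, for the letters AAC where they begin 26 to 29 bases before it, and for ATGATG where it follows those letters after 2 bases, which resembles the X box.
H2-Aa, chr17:34287859-34287913, minus strand: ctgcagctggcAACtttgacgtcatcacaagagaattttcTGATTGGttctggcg
H2-Eb1, chr17:34305766-34305820, plus strand: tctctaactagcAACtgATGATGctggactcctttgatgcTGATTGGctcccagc
H2-DMb1, chr17:34153088-34153142, plus strand: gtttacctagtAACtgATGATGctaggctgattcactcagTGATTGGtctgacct
H2-DMb2, chr17:34145117-34145171, plus strand: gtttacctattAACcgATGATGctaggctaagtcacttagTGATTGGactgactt
H2-Oa, chr17:34092294-34092348, plus strand: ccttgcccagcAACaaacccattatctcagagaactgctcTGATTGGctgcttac
H2-Ob, chr17:34238806-34238860, plus strand: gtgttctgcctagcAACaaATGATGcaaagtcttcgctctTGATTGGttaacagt

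Over all 32851 RefSeq windows of this length, searched on both strands, 7.23% hold TGATTGG, 0.396% hold it with AAC beginning 26 to 29 bases before it, and 0.119% hold AAC followed after any 2 bases by ATGATG. H2-Eb1, H2-DMb1, H2-DMb2 and H2-Ob hold this last pattern, and H2-Aa and H2-Oa hold the spaced AAC without it. H2-DMa has 2 RefSeq windows, with starts at chr17:34122832 and chr17:34125518, and neither holds TGATTGG. Both starts lie upstream of the counted gene, which begins at chr17:34135182, so these windows do not cover the start that was counted. The printed stretches of H2-DMb1 and H2-DMb2 lie inside the counted genes, which begin at chr17:34153072 and chr17:34143307. That of H2-Oa spans the counted start at chr17:34092340. The motifs were chosen after the sequences were seen, and a match describes letters and not binding.

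Total counts per library ranged from 16764589 to 24818703. Ager itself had 473 to 622 counts in Ager-/- lungs, 34769 to 70580 counts in Ager AHA/AHA lungs and 39913 to 65695 counts in WT lungs, a log2 fold change of −6.42 in Ager-/- against WT (edgeR adjusted p = 3.14e-11). In neutrophils Ager had 60 to 101 counts in the libraries labelled Ager-/-, 15 to 44 counts in those labelled Ager AHA/AHA and 15 to 37 counts in those labelled WT. It was thus not lower in the Ager-/- neutrophils (log2 fold change 1.07 against WT, edgeR adjusted p = 0.0581), so Ager did not check the neutrophil genotypes. Neutrophil markers summed to 20430 CPM or more in every neutrophil library, where CPM is the count scaled to a common library size with TMM factors (trimmed mean of M-values), and the 6 markers of type 2 alveolar cells summed to 37140 CPM or more in every lung library. Lung Ager AHA/AHA replicate 4 stood apart: its 10 neutrophil markers summed to 357 CPM, against at most 108 CPM in the other lung libraries. H2-Ea-ps, the C57BL/6 form of the α chain gene that would pair with H2-Eb1, had 0 to 4 counts in each of the 20 libraries.

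**Figure D1:**
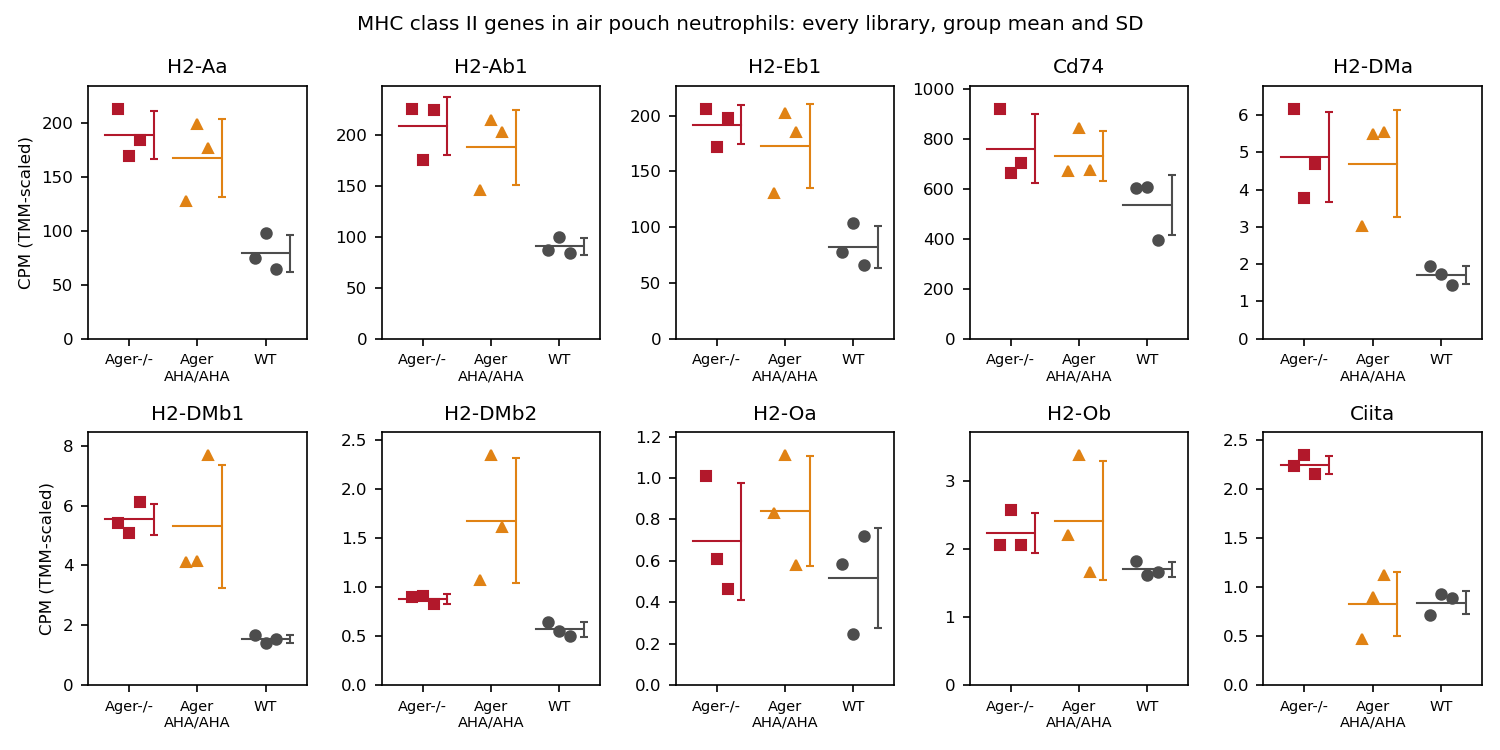
Level of each MHC class II gene in the 9 neutrophil libraries, in CPM on TMM-scaled library sizes (vertical axis, from 0), with Ager-/- as squares, Ager AHA/AHA as triangles and WT as circles; the line is the group mean and the bar its SD. Both mutants sit above every WT library for the α and β chain genes, Cd74, H2-DMa, H2-DMb1 and H2-DMb2, and the highest Ciita values are those of the 3 Ager-/- libraries.

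The classical chain genes, H2-Aa and H2-Ab1 for the α and β chains of I-A and H2-Eb1 for the β chain of I-E, were higher in neutrophil libraries of both mutants than in WT. Below, replicates are in the order 1, 4 and 6 for Ager-/-, 2, 4 and 6 for Ager AHA/AHA, and 1, 2 and 3 for WT. H2-Ab1 was at 225, 176 and 224 CPM in Ager-/-, 146, 214 and 203 CPM in Ager AHA/AHA, and 87.2, 100 and 83.8 CPM in WT. No mutant library came down to a WT library, and the lowest mutant value was that of Ager AHA/AHA replicate 2. The log2 fold change of H2-Ab1 was 1.20 in Ager-/- against WT (SE 0.188, adjusted p = 0.0012, edgeR's quasi-likelihood test with Benjamini-Hochberg adjustment) and 1.06 in Ager AHA/AHA against WT (SE 0.187, adjusted p = 0.00714). All adjusted p-values are from this test over all genes tested, and fewer cells of a type and less RNA per cell cannot be told apart in these bulk samples.

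H2-Aa was at 213, 169 and 184.5 CPM in Ager-/-, 128, 199 and 177 CPM in Ager AHA/AHA, and 75.2, 97.7 and 64.3 CPM in WT. Its log2 fold change was 1.26 (SE 0.204, adjusted p = 0.00142) in Ager-/- and 1.09 (SE 0.203, adjusted p = 0.00815) in Ager AHA/AHA. H2-Eb1 was at 206, 172 and 198 CPM in Ager-/-, 130.5, 202 and 186 CPM in Ager AHA/AHA, and 77.6, 103 and 66.0 CPM in WT. It thus followed the chains of I-A library by library, and its groups did not overlap with WT either. Its log2 fold change was 1.22 (SE 0.205, adjusted p = 0.0019) in Ager-/- and 1.07 (SE 0.205, adjusted p = 0.0103) in Ager AHA/AHA.

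Cd74, the invariant chain that fills the groove of new class II pairs, was at 920.2, 662 and 703 CPM in Ager-/-, 672, 846 and 677 CPM in Ager AHA/AHA, and 602, 608 and 395 CPM in WT. Every mutant library was above every WT library, and WT replicate 3 was the lowest. Its log2 fold change was 0.51 (95% interval 0.08 to 0.94, adjusted p = 0.103) in Ager-/- and 0.45 (95% interval 0.03 to 0.88, adjusted p = 0.204) in Ager AHA/AHA, and neither passed the threshold. Without WT replicate 3 it was 0.33 in Ager-/- and 0.27 in Ager AHA/AHA. With no TMM factors, on library totals, Cd74 in Ager-/- reached a log2 fold change of 0.93 with an adjusted p of 0.00499. Cd74 (chr18:60803848-60812646) overlaps the microRNA gene Mir5107, which had 359 counts in all 20 libraries together.

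H2-DM, the exchange factor that removes the Cd74 remnant and loads peptide, is a pair of H2-DMa with H2-DMb1 or H2-DMb2, and its genes were expressed far below those of the classical chains. H2-DMb1 was at 5.42, 5.08 and 6.12 CPM in Ager-/-, 4.10, 4.14 and 7.68 CPM in Ager AHA/AHA, and 1.68, 1.42 and 1.55 CPM in WT, from 23 to 28 counts per WT library. H2-DMa was at 6.17, 3.78 and 4.68 CPM in Ager-/-, 3.03, 5.50 and 5.56 CPM in Ager AHA/AHA, and 1.94, 1.73 and 1.44 CPM in WT. For both genes the groups of each mutant and of WT did not overlap. For H2-DMb1 the log2 fold change was 1.83 (SE 0.285, adjusted p = 0.0012) in Ager-/- and 1.78 (SE 0.286, adjusted p = 0.00364) in Ager AHA/AHA. That of H2-DMa was 1.52 (SE 0.295, adjusted p = 0.00576) in Ager-/- and 1.47 (SE 0.296, adjusted p = 0.0137) in Ager AHA/AHA.

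H2-DMb2, the second β chain gene of H2-DM, was at 0.897, 0.913 and 0.823 CPM in Ager-/-, 1.07, 2.35 and 1.62 CPM in Ager AHA/AHA, and 0.647, 0.556 and 0.499 CPM in WT, which is 9 or 10 counts in each WT library. Its groups did not overlap, with Ager AHA/AHA highest and Ager-/- between it and WT. Its log2 fold change was 0.63 (adjusted p = 0.31) in Ager-/- against WT and 1.57 (SE 0.399, adjusted p = 0.0376) in Ager AHA/AHA against WT, and −0.94 (adjusted p = 0.42) in Ager-/- against Ager AHA/AHA. The call in Ager AHA/AHA was lost with any of WT replicates 1, 2 and 3, Ager AHA/AHA replicates 4 and 6 or Ager-/- replicate 4 left out, and with limma on log2(FPKM + 1). In the limma fit the added 1 is large beside levels this low, and the log2 fold change shrank to 0.88. H2-DMb1 and H2-DMb2 are close copies: their longest coding transcripts in GENCODE vM21 were identical at 94.6% of 1219 aligned bases, and 26.6% of the 50-base stretches of H2-DMb1 also occurred in H2-DMb2. No source used here states what was done with reads that fit both, so the split between them is uncertain.

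H2-DO, made from H2-Oa and H2-Ob and known from B cells as the inhibitor of H2-DM, did not pass the test in either mutant. H2-Ob was at 2.06, 2.56 and 2.06 CPM in Ager-/-, 2.20, 3.37 and 1.66 CPM in Ager AHA/AHA, and 1.81, 1.61 and 1.66 CPM in WT, with log2 fold changes of 0.39 (95% interval −0.26 to 1.05, adjusted p = 0.406) in Ager-/- and 0.51 (95% interval −0.14 to 1.16, adjusted p = 0.356) in Ager AHA/AHA. H2-Oa had 9 to 27 counts in Ager-/- libraries, 14 to 26 counts in Ager AHA/AHA libraries and 4 to 13 counts in WT libraries. Its log2 fold change was 0.43 (95% interval −0.64 to 1.50) in Ager-/- and 0.68 (95% interval −0.38 to 1.75) in Ager AHA/AHA, and changes within these intervals were not excluded at this depth. H2-Oa overlaps the antisense gene BC051537, which had 11 counts in all libraries together.

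Ciita, the coactivator of the whole set, was at 2.24, 2.35 and 2.16 CPM in Ager-/-, 0.475, 0.895 and 1.12 CPM in Ager AHA/AHA, and 0.712, 0.927 and 0.888 CPM in WT. These are 42 to 60 counts per Ager-/- library, 8 to 27 per Ager AHA/AHA library and 11 to 16 per WT library. All Ager-/- libraries were above all others, while Ager AHA/AHA and WT overlapped. The log2 fold change was 1.41 (SE 0.357, adjusted p = 0.0222) in Ager-/- against WT, 0.01 (95% interval −0.78 to 0.79, adjusted p = 0.994) in Ager AHA/AHA against WT, and 1.40 (95% interval 0.67 to 2.13, adjusted p = 0.104) in Ager-/- against Ager AHA/AHA. The last did not pass the threshold, so Ciita was not shown to differ between the mutants. Ciita (chr16:10480059-10528418) overlaps Dexi on the opposite strand (6130 counts in all libraries), and no source used here states whether the counting used strand. The call in Ager-/- was lost without Ager-/- replicate 4, WT replicate 1 or WT replicate 3, and with limma on log2(FPKM + 1). In the limma fit the added 1 is large beside levels this low, and the log2 fold change shrank to 0.35. The loss there thus says little about Ciita.

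**Figure D2:**
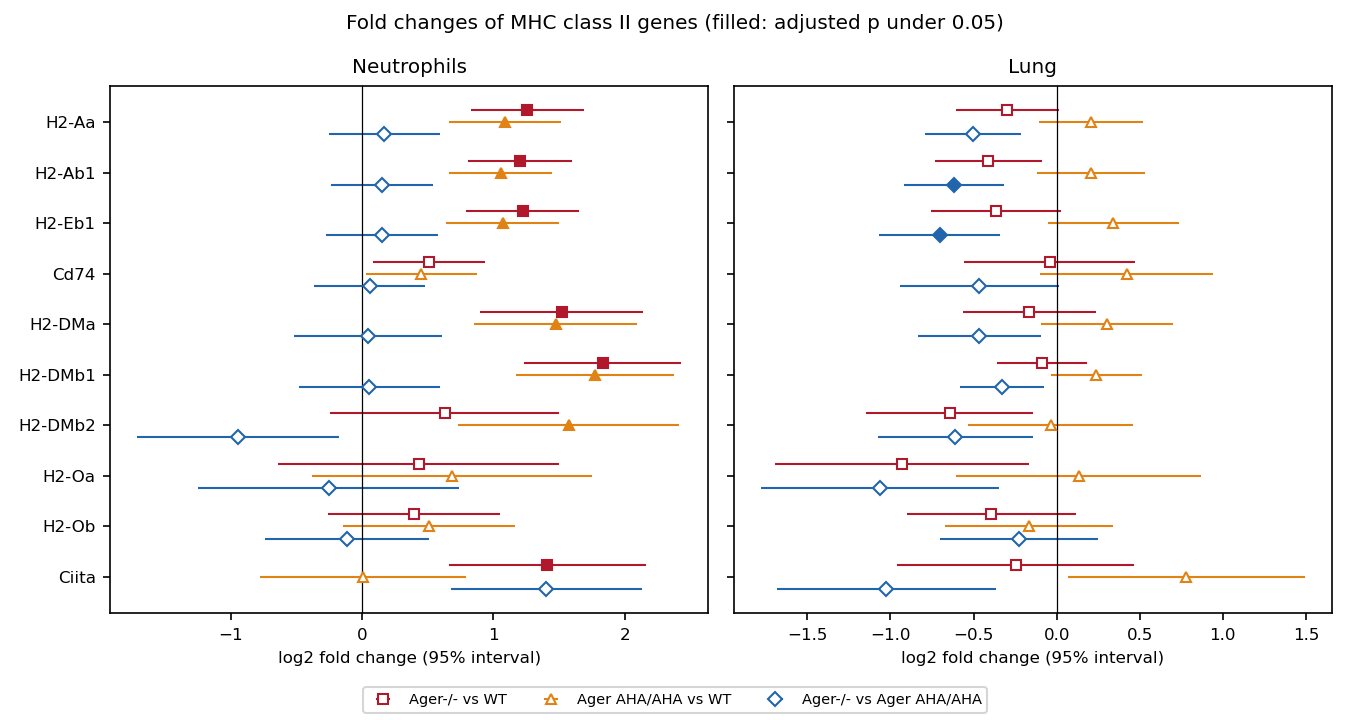
Log2 fold change of each MHC class II gene with its 95% interval (horizontal axis) for Ager-/- against WT (squares), Ager AHA/AHA against WT (triangles) and Ager-/- against Ager AHA/AHA (diamonds), in neutrophils (left) and lung (right); filled symbols have an adjusted p under 0.05. In neutrophils 6 symbols are filled for each mutant against WT, all to the right of 0, and in lung 2 are filled, both for Ager-/- against Ager AHA/AHA and to the left of 0.

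Over the 10 genes, 6 rose in Ager-/- neutrophils against WT and none fell, against a background of 6.65% of the 11632 genes tested that rose and 4.01% that fell (H2-Aa, H2-Ab1, H2-Eb1, H2-DMa, H2-DMb1 and Ciita). In Ager AHA/AHA neutrophils 6 rose and none fell, against a background of 1.8% that rose and 1.84% that fell (the same genes with H2-DMb2 in place of Ciita, 5 shared). Every mutant library was above every WT library for 9 of 10 genes in Ager-/-, against 19.7% of all genes, and for 7 of 10 in Ager AHA/AHA, against 11.4%. The median log2 fold change of the 10 was 1.21 in Ager-/- and 1.06 in Ager AHA/AHA, where that of all genes was 0.01 and 0.02. Both mutants were set against the same WT libraries, so the counts are not independent of each other.

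The result in Ager AHA/AHA rested on few libraries. The count of 6 fell to 1 without WT replicate 1, to 2 without WT replicate 3 and to 1 without Ager AHA/AHA replicate 6, and H2-DMb1 was the gene called in all 3 of these fits. In Ager-/- the count stayed at 5 or 6 with any library left out. With the replicate number as a block, the count was 0 in both mutants. Each mutant shares only 1 replicate number with WT, so the blocked fit left little from which to estimate the spread. A call lost there does not show that the replicate numbers matter. Scaling bore on the Ager-/- comparison: TMM factors were 1.14 to 1.21 in Ager-/- and 0.789 to 0.990 in WT, and without them the median of all genes in Ager-/- shifted by 0.40 and the split of all calls became 2112 higher and 74 lower, against 774 higher and 466 lower with TMM. The median of the MHC class II genes was then 1.61, still above that of all genes, with 7 called.

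Between the mutants, none of the 10 genes differed in neutrophils by edgeR or by DESeq2 (edgeR, Ager-/- against Ager AHA/AHA, 2 with an unadjusted p under 0.05, namely Ciita and H2-DMb2), and 0.533% of all genes were called there. The 95% interval of the log2 difference was −0.25 to 0.59 for H2-Aa, −0.24 to 0.54 for H2-Ab1 and −0.48 to 0.59 for H2-DMb1. Differences between the mutants within these intervals were not excluded.

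The other genes of the pathway were taken from fixed lists. Beside the calls in these lists, 6.65% of all genes tested in neutrophils rose in Ager-/- and 4.01% fell. In Ager AHA/AHA 1.8% rose and 1.84% fell. Of 11 genes of class II processing, Ctsl (an endosomal protease, log2 fold change 1.03, adjusted p = 0.0127), Lgmn (an asparaginyl endopeptidase, 0.87, adjusted p = 0.0154) and Ifi30 (the lysosomal thiol reductase GILT, 0.78, adjusted p = 0.0457) rose in Ager-/- neutrophils and none fell. None of the 11 was called in Ager AHA/AHA by edgeR, with 3 at an unadjusted p under 0.05. The median log2 fold change of the list was 0.02 in Ager-/- and −0.04 in Ager AHA/AHA.

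Of 18 genes of the control of class II transcription, Irf8 and Irf4, interferon regulatory factors of antigen-presenting cells, rose in both mutants. Irf4 was at 15.2, 11.04 and 11.5 CPM in Ager-/-, 6.89, 10.96 and 12.5 CPM in Ager AHA/AHA, and 1.81, 5.75 and 3.44 CPM in WT, with log2 fold changes of 1.77 (adjusted p = 0.00432) in Ager-/- and 1.46 (adjusted p = 0.0238) in Ager AHA/AHA. Irf8 changed by 0.85 (adjusted p = 0.0193) in Ager-/- and 0.80 (adjusted p = 0.042) in Ager AHA/AHA. Ifng, the cytokine that induces Ciita, rose in Ager AHA/AHA (1.24, adjusted p = 0.031) and was at 0.87 (adjusted p = 0.0657) in Ager-/-, where it was called on library totals (1.28, adjusted p = 0.0122). Nfyb, a subunit of NF-Y, fell in Ager-/- by 0.59 on the log2 scale (adjusted p = 0.0482). The calls of Nfyb in Ager-/- and of Irf8 in Ager AHA/AHA were lost on library totals without TMM factors, at adjusted p = 0.499 and 0.0576. Rfx5, Rfxank and Rfxap, the RFX subunits, were not called in either mutant. The median of the list was −0.10 in Ager-/- and −0.18 in Ager AHA/AHA.

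Of 9 costimulation genes, which signal to T cells beside the peptide, 3 rose in Ager-/- and 2 in Ager AHA/AHA, and none fell. Over all genes, 6.65% rose in Ager-/- and 1.8% in Ager AHA/AHA. Cd40 was at 76.2, 60.4 and 69.7 CPM in Ager-/-, 54.5, 71.7 and 63.2 CPM in Ager AHA/AHA, and 25.7, 38.4 and 27.9 CPM in WT, with no overlap between either mutant and WT. Its log2 fold change was 1.17 (adjusted p = 0.00152) in Ager-/- and 1.04 (adjusted p = 0.00769) in Ager AHA/AHA. Cd83, which keeps class II on the surface, changed by 0.98 (adjusted p = 0.0179) in Ager-/- and 0.96 (adjusted p = 0.0346) in Ager AHA/AHA, and Cd86 rose in Ager-/- (0.92, adjusted p = 0.0135). The median of the list was 0.55 in both mutants.

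The other listed genes of the class II region were not called in neutrophils. They include Psmb8, Psmb9, Tap1, Tap2 and Tapbp, which prepare and load peptides for MHC class I, and Brd2, and they lie on the same stretch of chromosome 17. Of the 8 tested in neutrophils none was called by edgeR in either mutant. At an unadjusted p under 0.05 there were 1 in Ager-/- and 0 in Ager AHA/AHA, with log2 fold changes from −0.48 to 0.72 in Ager-/- and from −0.27 to 0.39 in Ager AHA/AHA. Their median was −0.28 in Ager-/- and 0.07 in Ager AHA/AHA.

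Markers of other cells moved in the same neutrophil libraries, where 6.65% of all genes rose in Ager-/- and 1.8% in Ager AHA/AHA. Of 10 macrophage markers, 4 rose in Ager-/- and 3 in Ager AHA/AHA, and none fell. C1qa, a complement subunit made by macrophages, was at 23.4, 16.5 and 18.9 CPM in Ager-/-, 11.1, 14.4 and 14.4 CPM in Ager AHA/AHA, and 4.21, 4.51 and 2.28 CPM in WT. C1qb and C1qc rose in both mutants as well, and Mertk, the fourth in Ager-/-, was at an adjusted p of 0.0503 with RLE scaling. The summed level of the 10 was 487 to 552 CPM in Ager-/-, 487 to 535 CPM in Ager AHA/AHA and 454 to 599 CPM in WT. Of 9 tested dendritic cell markers, 3 rose in Ager-/- (Zbtb46, Batf3 and Ccr7) and 1 in Ager AHA/AHA (Zbtb46), and the 10 listed summed to 389 to 660 CPM in Ager-/-, 302 to 615 CPM in Ager AHA/AHA and 283 to 394 CPM in WT. Of 8 T cell markers, 5 rose in Ager-/- and 2 in Ager AHA/AHA, with sums of 25.3 to 51.1 CPM, 18.5 to 31.6 CPM and 10.9 to 13.3 CPM in Ager-/-, Ager AHA/AHA and WT libraries. The 10 neutrophil markers summed to 20460 to 21450 CPM in Ager-/-, 20430 to 29490 CPM in Ager AHA/AHA and 24750 to 34120 CPM in WT, with Mmp9 called lower in Ager-/- (log2 fold change −0.65, adjusted p = 0.0328 by edgeR), a call lost on library totals without TMM factors (−0.27, adjusted p = 0.28). The part of these cells in the class II values was not tested.

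B cells are another carrier of class II. None of the 4 B cell markers tested in neutrophils was called by edgeR, with 1 of 4 in Ager-/- and 0 of 4 in Ager AHA/AHA at an unadjusted p under 0.05, and the 10 listed summed to 13.6 to 15.4 CPM in Ager-/-, 15.6 to 19.7 CPM in Ager AHA/AHA and 15.0 to 16.7 CPM in WT. Defining genes were at or near 0: Ms4a1 had no count in 8 of 9 libraries and Pax5 in 7 of 9, with at most 2 counts of Ms4a1 and 4 of Pax5 in any library.

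**Figure D3:**
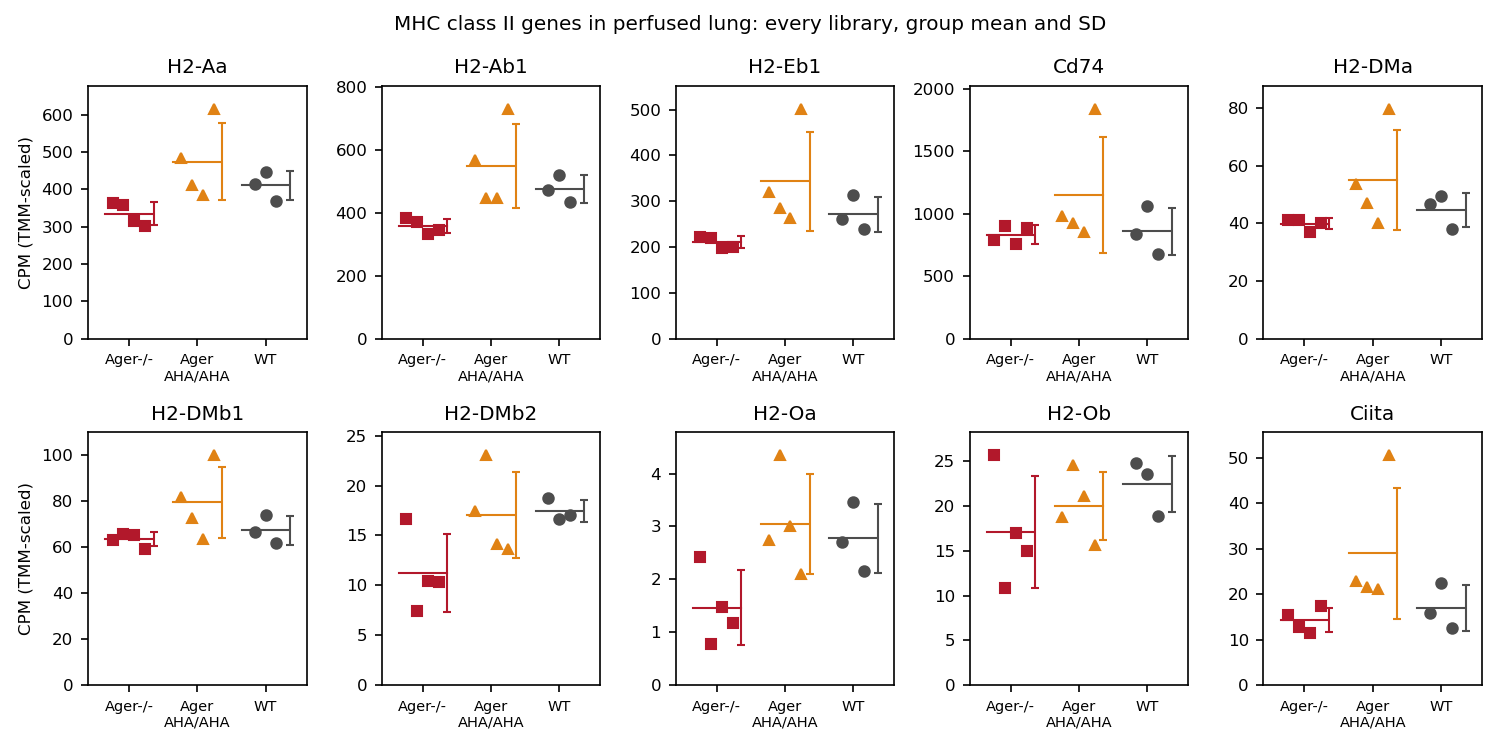
Level of each MHC class II gene in the 11 lung libraries, in CPM on TMM-scaled library sizes (vertical axis, from 0), with Ager-/- as squares, Ager AHA/AHA as triangles and WT as circles; points run by replicate number, the line is the group mean and the bar its SD. The rightmost triangle, Ager AHA/AHA replicate 4, is highest for 7 genes and lowest of its group for H2-DMb2, H2-Oa and H2-Ob.

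In lung none of the 10 genes passed the test in either mutant against WT. Lung replicates are in the order 1, 2, 4 and 5 for Ager-/-, 1, 2, 3 and 4 for Ager AHA/AHA, and 1, 2 and 3 for WT. H2-Ab1 was at 383, 371, 332 and 345.5 CPM in Ager-/-, 569, 448, 446.5 and 730.4 CPM in Ager AHA/AHA, and 471, 521 and 434 CPM in WT. H2-Eb1 was at 223, 221, 198 and 201 CPM in Ager-/-, 321, 285.5, 264 and 502 CPM in Ager AHA/AHA, and 261, 314 and 238 CPM in WT. All Ager-/- libraries were below all others for both genes, while Ager AHA/AHA and WT overlapped.

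H2-Aa was at 363, 357, 316 and 300.3 CPM in Ager-/-, 483, 413, 384 and 615 CPM in Ager AHA/AHA, and 415, 446 and 369.7 CPM in WT. It showed the same order, and the Ager-/- group again had no overlap with the others. Against WT, edgeR and DESeq2 called none of the 10 in Ager-/- lung, where edgeR called 3.1% of the 17458 genes tested in either direction. An unadjusted p under 0.05 was found for 3 of the 10, and its share over all genes was not counted. All 10 log2 fold changes were below 0, with a median of −0.33 beside 0.01 for all genes, and every Ager-/- library was below every WT library for 3 of 10, against 8% of all genes. The log2 fold change was −0.41 (95% interval −0.73 to −0.09, adjusted p = 0.178) for H2-Ab1, −0.36 (adjusted p = 0.345) for H2-Eb1 and −0.30 (adjusted p = 0.331) for H2-Aa. Cd74 was at −0.04 (95% interval −0.56 to 0.47). A single gene was called in 2 alternative fits, H2-Ab1 with only the Ager-/- and WT libraries (adjusted p = 0.0485) and H2-DMb2 without Ager-/- replicate 1 (adjusted p = 0.0294).

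Ager-/- lung was also set against Ager AHA/AHA lung. Of the 10 genes, 2 fell in Ager-/- against Ager AHA/AHA, with 1.79% of all genes called lower: H2-Ab1 (−0.62, SE 0.142, adjusted p = 0.0265) and H2-Eb1 (−0.70, SE 0.170, adjusted p = 0.039). H2-Aa was at −0.50 (adjusted p = 0.0566), Ciita at −1.02 (adjusted p = 0.106) and Cd74 at −0.46 (adjusted p = 0.385). Without Ager AHA/AHA replicate 4, the library with the most neutrophil marker RNA, Ciita was at −0.61, Cd74 at −0.14, H2-Ab1 at −0.44, H2-Eb1 at −0.46 and H2-Aa at −0.35. With every library kept, all 10 values were below 0, with a median of −0.557 beside −6.39e-05 for all genes. An unadjusted p under 0.05 was found for 8, and its share over all genes was not counted. There was no overlap for 4 genes, against 4.69% of all genes below in every library. Deviations of same-numbered lung libraries of these groups correlated at r 0.117 to 0.167, and those of differently numbered ones at −0.276 to 0.15. With the replicate number as a block 1 gene was called, H2-Ab1 (−0.65, adjusted p = 0.036), while H2-Eb1 was at −0.74 (adjusted p = 0.0615).

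The 2 calls also depended on the fit and on single libraries. DESeq2 called 5 of the 10 lower, adding H2-Aa, H2-Oa and Ciita, whereas none was called with only these 2 groups in the fit, with limma on log2(FPKM + 1), or without Ager AHA/AHA replicate 1 or any of Ager-/- replicates 2, 4 and 5. Without WT replicate 1 only H2-Ab1 was called, and without Ager-/- replicate 1 the 2 called were H2-DMb2 and H2-Oa. With Ager AHA/AHA replicate 2 or 3 left out, 3 were called.

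Ager AHA/AHA replicate 4 carried most of the width of its group. Ciita was at 15.3, 12.8, 11.5 and 17.5 CPM in Ager-/-, 22.8, 21.5, 21.1 and 50.5 CPM in Ager AHA/AHA, and 15.8, 22.5 and 12.5 CPM in WT. Cd74 was at 786, 901, 756 and 887 CPM in Ager-/-, 981, 922, 854 and 1838 CPM in Ager AHA/AHA, and 833, 1059 and 680 CPM in WT. For both genes Ager AHA/AHA replicate 4 was far above every other lung library, and the remaining Ager AHA/AHA libraries overlapped with WT. Against WT, none of the 10 was called in Ager AHA/AHA lung by edgeR or DESeq2, with 0.172% of all genes called in either direction and 1 of the 10 (Ciita) at an unadjusted p under 0.05. The log2 fold change of Ciita was 0.78 (95% interval 0.07 to 1.49, adjusted p = 0.947), and 0.35 without replicate 4. That of Cd74 was 0.42 (adjusted p = 0.947), and 0.09 without replicate 4.

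The genes of H2-DM and H2-DO in lung had overlapping groups in every comparison of genotypes. H2-DMa was at 41.3, 41.4, 37.1 and 40.03 CPM in Ager-/-, 53.6, 46.9, 40.1 and 79.8 CPM in Ager AHA/AHA, and 46.7, 49.4 and 38.1 CPM in WT. H2-DMb1 was at 63.3, 65.7, 65.5 and 59.1 CPM in Ager-/-, 81.8, 72.6, 63.8 and 99.97 CPM in Ager AHA/AHA, and 66.5, 74.1 and 61.6 CPM in WT. Both genes of H2-DM overlapped between all genotypes, and Ager-/- varied least. H2-DMb1 differed by −0.09 (95% interval −0.36 to 0.19) between Ager-/- and WT.

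H2-Ob was at 25.7, 10.8, 16.97 and 15.0 CPM in Ager-/-, 18.7, 24.6, 21.1 and 15.7 CPM in Ager AHA/AHA, and 24.8, 23.6 and 18.9 CPM in WT. H2-DMb2 was at 16.7, 7.41, 10.5 and 10.4 CPM in Ager-/-, 17.5, 23.0, 14.2 and 13.7 CPM in Ager AHA/AHA, and 18.7, 16.6 and 17.1 CPM in WT. H2-Oa was at 2.43, 0.767, 1.47 and 1.17 CPM in Ager-/-, 2.74, 4.34, 3.00 and 2.10 CPM in Ager AHA/AHA, and 2.71, 3.46 and 2.16 CPM in WT. In these 3 genes the high library was replicate 1 in Ager-/- and replicate 2 in Ager AHA/AHA, and Ager AHA/AHA replicate 4 was the lowest of its group, the reverse of the other members. The log2 fold change of H2-Oa in Ager-/- was −0.93 (adjusted p = 0.196) against WT and −1.06 (adjusted p = 0.113) against Ager AHA/AHA, and that of H2-DMb2 was −0.64 (adjusted p = 0.173) and −0.61 (adjusted p = 0.185).

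**Figure D4:**
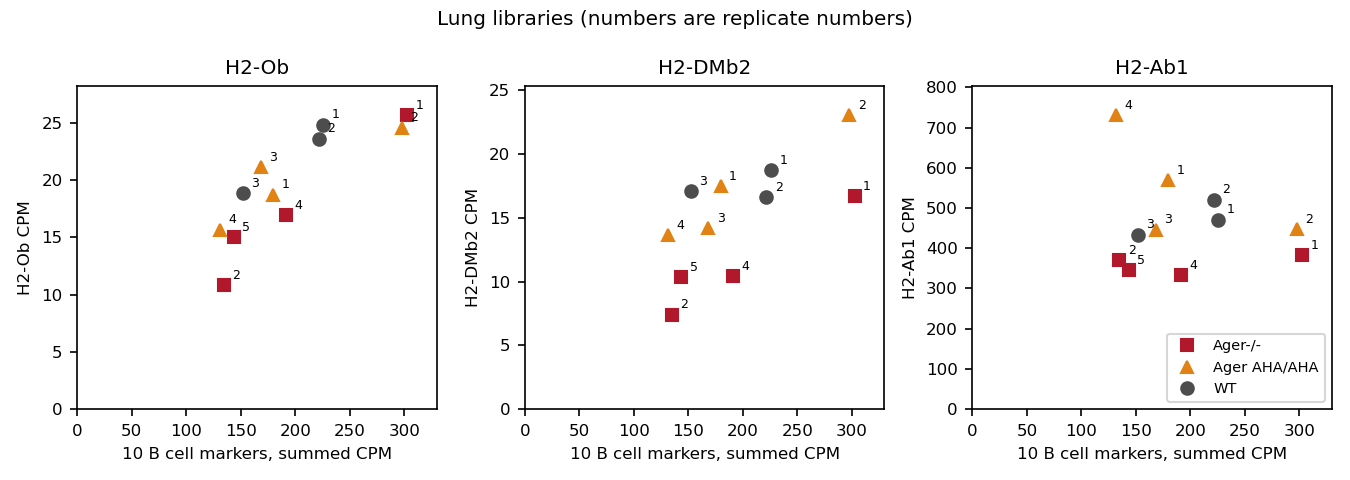
H2-Ob, H2-DMb2 and H2-Ab1 (vertical axes, CPM) against the summed CPM of 10 B cell markers (horizontal axis) in the 11 lung libraries, with Ager-/- as squares, Ager AHA/AHA as triangles, WT as circles and replicate numbers beside the points. Within each mutant H2-Ob and H2-DMb2 are highest in the library with the most B cell marker RNA (303 CPM in Ager-/- replicate 1 and 298 CPM in Ager AHA/AHA replicate 2), and H2-Ab1 is highest in Ager AHA/AHA replicate 4, where the B cell markers are lowest at 131 CPM.

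B cell markers also varied between lung libraries. The 10 markers summed to 303, 135, 191 and 144 CPM in Ager-/-, 180, 298, 169 and 131 CPM in Ager AHA/AHA, and 226, 222 and 152 CPM in WT. The highest sums were those of Ager-/- replicate 1 and Ager AHA/AHA replicate 2, each the library with the most H2-Ob in its group, and the lowest was that of Ager AHA/AHA replicate 4. None of the 10 markers was called between genotypes by edgeR, with 1 at an unadjusted p under 0.05 against WT in each mutant and 0 between the mutants. The part of B cells in the H2-Oa, H2-Ob and H2-DMb2 values was not tested.

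Marker lists of other cells went in different directions in Ager-/- lung. Cd209a, a lectin of monocyte-derived dendritic cells, fell by 1.30 on the log2 scale against WT (adjusted p = 0.00455) and by 1.43 against Ager AHA/AHA (adjusted p = 0.00115). The 10 dendritic cell markers summed to 96.5 to 111 CPM in Ager-/-, 112 to 140 CPM in Ager AHA/AHA and 115 to 123 CPM in WT, with Cd209a the only one called. Irf8 fell by 0.48 in Ager-/- against Ager AHA/AHA (adjusted p = 0.0497). The 8 T cell markers summed to 34.4 to 46.0 CPM in Ager-/-, 49.0 to 55.9 CPM in Ager AHA/AHA and 57.2 to 61.4 CPM in WT. Of these, 3 were called lower in Ager-/- than in WT, against 287 of all 17458 genes tested. The 4 markers of type 1 alveolar cells, which carry RAGE, summed to 3380 to 3721 CPM in Ager-/-, 2192 to 3149 CPM in Ager AHA/AHA and 2455 to 2948 CPM in WT. Macrophage markers summed to 287.6 to 327.6 CPM in Ager-/- and 277 to 291.8 CPM in WT, with none called. Alveolar macrophage markers summed to 584.7 to 821.5 CPM in Ager-/- and 442.6 to 612.4 CPM in WT, with none called. Type 2 alveolar markers summed to 37270 to 48990 CPM in Ager-/- and 40320 to 45440 CPM in WT. Of the 6, 1 was called higher in Ager-/-, against 254 of all 17458 genes tested. The part of all these cells in the class II values of lung was not tested.

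The change of the class II genes was tested for a difference between the tissues in a fit of all 20 libraries. For Ager-/- against WT, 6 of the 10 genes changed more upward in neutrophils than in lung, against 7.26% of all genes. The excess on the log2 scale was 2.01 for H2-DMb1 (SE 0.288, adjusted p = 0.000185), 1.78 for H2-DMa (adjusted p = 0.00258), 1.74 for Ciita (adjusted p = 0.0235), 1.69 for H2-Ab1 (adjusted p = 0.000211), 1.66 for H2-Eb1 (adjusted p = 0.00117) and 1.63 for H2-Aa (adjusted p = 0.000673). The Ciita call was lost without lung WT replicate 2 or any of neutrophil Ager-/- replicate 1 and WT replicates 1 and 3 (adjusted p between 0.0556 and 0.0808). In Ager AHA/AHA, 1 gene did so, H2-DMb1 (1.63, SE 0.289, adjusted p = 0.00771), against 1.09% of all genes, with H2-Ab1 and H2-DMb2 at an adjusted p of 0.0525 and H2-Aa and H2-DMa at 0.0592. Without lung Ager AHA/AHA replicate 4, neutrophil Ager AHA/AHA replicate 2 or neutrophil Ager-/- replicate 1 this count was 5, without neutrophil WT replicate 2 it was 4, and without lung Ager AHA/AHA replicate 2 or lung Ager-/- replicate 1 or 2 it was 2. The tissues also differ in LPS treatment and in cell makeup, which cannot be told apart here.

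**Figure D5:**
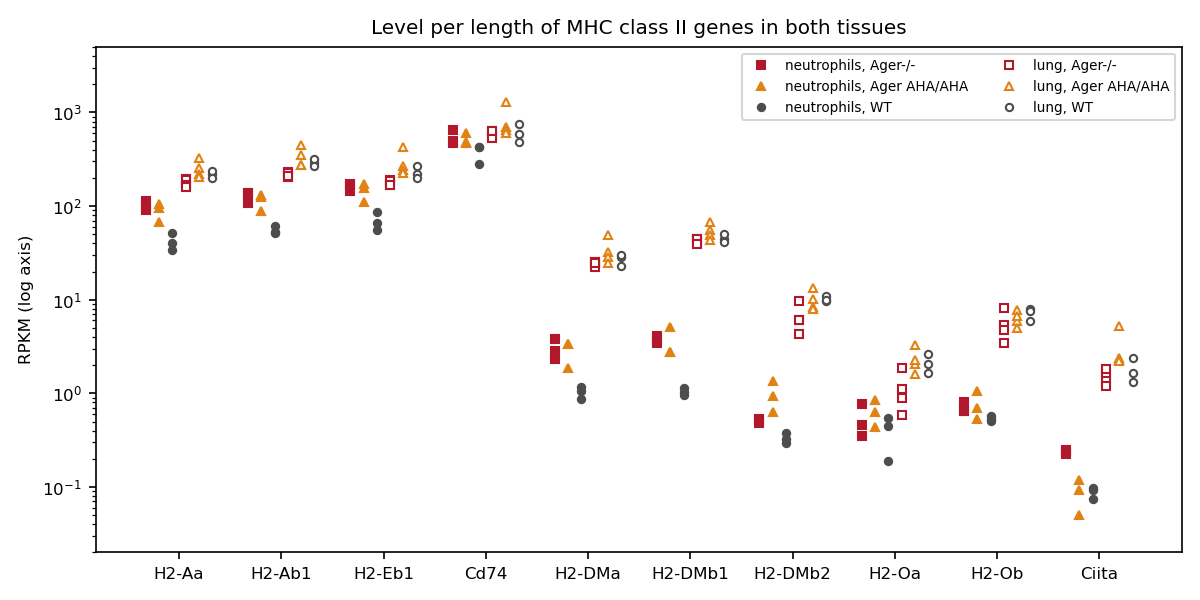
Level per length (RPKM, log axis) of the 10 genes in every library of neutrophils (filled) and lung (open), with Ager-/- as squares, Ager AHA/AHA as triangles and WT as circles. Cd74 and the classical chains are on top in both tissues. H2-Aa, H2-Ab1, H2-DMa, H2-DMb1, H2-DMb2, H2-Ob and Ciita are lower in every neutrophil library than in every lung library. Cd74, H2-Eb1 and H2-Oa overlap between the tissues. TMM factors were computed within each tissue, so levels are not scaled jointly across tissues.

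Levels of different genes were compared per length, as RPKM (CPM per kilobase of gene length) on the same library sizes. In WT neutrophils Cd74 was at 379 ± 86.1 RPKM (SD, n = 3), followed by H2-Eb1 at 69.5 ± 16.2 RPKM, H2-Ab1 at 55.2 ± 5.22 RPKM and H2-Aa at 42.2 ± 9.09 RPKM. H2-DMb1 and H2-DMa were at 1.05 ± 0.0880 RPKM and 1.04 ± 0.153 RPKM, H2-Ob at 0.538 ± 0.0337 RPKM, H2-Oa at 0.394 ± 0.186 RPKM, H2-DMb2 at 0.332 ± 0.0437 RPKM and Ciita at 0.0883 ± 0.0120 RPKM. In WT lung the order was Cd74 (608 ± 135 RPKM), H2-Ab1 (290.5 ± 26.6 RPKM), H2-Eb1 (229 ± 32.9 RPKM) and H2-Aa (219 ± 20.6 RPKM), then H2-DMb1 (45.4 ± 4.21 RPKM), H2-DMa (27.3 ± 3.62 RPKM), H2-DMb2 (10.2 ± 0.647 RPKM), H2-Ob (7.12 ± 0.998 RPKM), H2-Oa (2.12 ± 0.497 RPKM) and Ciita (1.78 ± 0.534 RPKM). H2-Eb1 and H2-Aa lay within each other's spread there, as did H2-Oa and Ciita.

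The proportions within the set differed between the tissues and, for some genes, between genotypes. The RPKM of H2-DMb1 was 2.65% to 3.19% of that of H2-Ab1 in Ager-/- neutrophils, 2.13% to 4.17% in Ager AHA/AHA neutrophils and 1.57% to 2.13% in WT neutrophils, but 15.1% to 21.7% over all lung libraries. H2-Aa stayed at 0.67 to 0.853 times H2-Ab1 in all libraries of both tissues. Cd74 was at 3.64 to 4.74 times H2-Ab1 in Ager-/- neutrophils, 3.88 to 5.34 times in Ager AHA/AHA neutrophils and 5.47 to 8.01 times in WT neutrophils. H2-Ob was at 15.8% to 23.8% of H2-DMb1 in Ager-/- neutrophils, 10.2% to 38.3% in Ager AHA/AHA neutrophils and 50.5% to 53.2% in WT neutrophils. Both ratios were thus lower in every mutant neutrophil library than in every WT library, a description with no test. Their divisors, H2-Ab1 and H2-DMb1, were called higher in both mutants, and Cd74 and H2-Ob were not called. The lower ratios are therefore not separate from those calls.

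By the Pearson correlation of log2 CPM with H2-Ab1, the genes most like it over the 9 neutrophil libraries were H2-Eb1 (r = 0.986), H2-Aa (0.986), Igsf8 (0.985), Lap3 (0.98) and Kcnn4 (0.98), among 11631 genes. Over the 11 lung libraries they were H2-Aa (r = 0.983), H2-Eb1 (0.977), S1pr4 (0.962), Sh3tc2 (0.961) and H2-M3 (0.956), among 17457 genes. Of the other members, H2-DMa and H2-DMb1 stood at 0.976 and 0.933 in neutrophils and 0.911 and 0.889 in lung, Ciita at 0.575 in neutrophils and 0.866 in lung, and H2-Ob at 0.546 in neutrophils and 0.167 in lung. The libraries share genotype groups and scaling, so these values describe likeness over the same samples.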

How the data were processed

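RNA-seq libraries of air pouch neutrophils (9) and perfused lung (11) were analysed from the table of raw counts per gene that the authors deposited. The submitters' processing notes name CASAVA, fastp, STAR, featureCounts and mm10, with no versions. The FPKM values deposited by the authors, counts per length scaled by a constant per library, served an alternative only, and the gene length in the authors' table served RPKM. The deposited tables of fold changes, standard errors, test statistics, p-values and mean counts made by the authors with DESeq2 were not used.

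The 3 genotypes of a tissue were fitted together, and the tissues separately, in edgeR 4.0.16 (limma 3.58.1, R 4.3.3): filterByExpr, TMM and the robust quasi-likelihood test, with Benjamini-Hochberg adjustment over 11632 genes in neutrophils and 17458 in lung. The threshold for a call was an adjusted p of 0.05. Counts at an unadjusted p under 0.05 are given without a share over all genes. The tissue by genotype interaction used all 20 libraries. Likeness used log2 CPM with a prior count of 2. The depth was 16764589 to 24818703 counts per library. The fits were tested on simulated data. The labels give replicates as separate samples and do not tie each to 1 animal. The paper calls the neutrophil replicates biological and counts mice in the groups of both tissues. The p-values measure the spread between these samples.

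The 10 genes and the lists were chosen with earlier results of these data known. Named by rule were all 10 genes, up to 4 called genes per list by p, the 5 genes most like H2-Ab1 per tissue, and Ager; others were named after their values were seen. Alternatives were DESeq2 1.42.0, RLE scaling, library totals, no filter or 1 CPM in 3 libraries, a fit of the compared groups alone, no robust option, limma on log2(FPKM + 1), the replicate block, each library left out, and a log2 fold change beyond 1. The same replicate numbers recur across genotypes and across tissues, with no meaning stated. The labels do not say whether a neutrophil and a lung library came from 1 animal. The fit of all 20 libraries treated them as independent. For lung Ager-/- and Ager AHA/AHA all 3 same-numbered pairs had positively correlated deviations (r 0.117 to 0.167), so the blocked value stands beside that comparison. Differently numbered pairs of these groups had r −0.276 to 0.15, so the ranges overlap. The only same-numbered neutrophil pair of Ager-/- and WT had r 0.144. Sequences are from RefSeq (GRCm38.p6). Figures were drawn with matplotlib.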

Additional observations from a re-analysis of the deposited data

Results flagged for a closer look

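In lung, Ager AHA/AHA replicate 4 stood apart from the other 3 libraries of its group in Cd74 and Ciita. Cd74 was at 1838 CPM in it and at 853.9 to 980.6 CPM in the others, and Ciita was at 50.54 CPM in it and at 21.08 to 22.81 CPM in the others. The gap to the nearest library was 0.871 of the group's range for Cd74 and 0.941 for Ciita, above Dixon's 95% critical value for 4 samples. Of 22 groups tested, 2 passed this value, and chance alone passes about 5% of groups. The same library had 357 CPM of neutrophil markers, and the part of that in these values was not tested.

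The change against WT differed between neutrophils and lung in the fit of all libraries (edgeR interaction). For Ager-/- the log2 fold change in neutrophils exceeded that in lung by 1.631 for H2-Aa, 1.694 for H2-Ab1, 1.661 for H2-Eb1, 1.781 for H2-DMa, 2.006 for H2-DMb1 and 1.743 for Ciita. For Ager AHA/AHA it did so by 1.634 for H2-DMb1.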

How the results depend on the processing

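The 6 calls in each mutant against WT in neutrophils held with RLE scaling, library totals, no filter, a filter of 1 CPM in 3 libraries, a fit that is not robust, only the compared groups and DESeq2. With the replicate number as a block, the counts were 0 in Ager-/- and 0 in Ager AHA/AHA. H2-Ab1 was then at 1.01 (adjusted p = 0.18) in Ager-/- and 0.90 (adjusted p = 0.335) in Ager AHA/AHA. With only 1 replicate number shared between each mutant and WT, this fit left little from which to estimate the spread. The labels do not state whether these numbers pair the neutrophil samples. Deviations of the same-numbered pair correlated at r 0.144 for Ager-/- and WT and −0.0979 for Ager AHA/AHA and WT. Between the mutants they did so at −0.185 and 0.0543. With limma on log2(FPKM + 1) the count in Ager AHA/AHA was 3. In lung, Ager-/- against Ager AHA/AHA gave 1 call with the replicate block, 0 beyond a log2 fold change of 1, 0 with only the 2 groups, 0 with limma and 5 with DESeq2, and Ager-/- against WT gave 1 with only the 2 groups. The tissue difference in Ager AHA/AHA gave 6 without the filter and 5 with DESeq2.

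Leaving out each library, the calls ranged from 1 to 6 (Ager AHA/AHA against WT) and 5 to 6 (Ager-/- against WT) in neutrophils, 0 to 3 (Ager-/- against Ager AHA/AHA) and 0 to 1 (Ager-/- against WT) in lung, and 1 to 5 (Ager AHA/AHA) and 5 to 7 (Ager-/-) for the tissue difference.

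Signs turned only for values near 0, none of them called; the cause was not tested. Ciita in Ager AHA/AHA neutrophils against WT was at −0.0062 with RLE scaling, −0.27 with the replicate block, −0.0063 with DESeq2 and −0.0089 with limma. In Ager-/- against Ager AHA/AHA neutrophils, library totals gave 0.0079 for H2-Oa and 0.13 for H2-Ob, the replicate block −0.18 for H2-DMa and −0.026 for Cd74, and limma −0.019 for H2-DMa and −0.044 for Cd74. In lung against WT, H2-DMb2 in Ager AHA/AHA was at 0.0085 with library totals and 0.023 with the replicate block, and Cd74 in Ager-/- at 0.015 with limma.

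With a library left out, Ager-/- against Ager AHA/AHA in neutrophils ranged from −0.12 to 0.18 for Cd74, −0.0019 to 0.28 for H2-Ab1, −0.19 to 0.23 for H2-DMa, −0.10 to 0.41 for H2-DMb1, −0.013 to 0.28 for H2-Eb1, −0.66 to 0.015 for H2-Oa and −0.34 to 0.21 for H2-Ob, and Ager AHA/AHA against WT from −0.26 to 0.25 for Ciita. In lung against WT, Ager-/- ranged from −0.19 to 0.14 for Cd74 and −0.43 to 0.012 for Ciita, and Ager AHA/AHA from −0.21 to 0.049 for H2-DMb2 and −0.090 to 0.31 for H2-Oa. The tissue difference of Cd74 in Ager AHA/AHA ranged from −0.080 to 0.43. Depth limits H2-Oa, H2-DMb2 and Ciita in neutrophils, with 4 to 60 counts per library.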
